A study of Mus musculus with 43 samples.

Results

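The genes described here are 10 components of bone morphogenetic protein (BMP) and transforming growth factor beta (TGF-beta) signalling, chosen by gene symbol: Acvrl1, Eng, Bmpr2, Tgfbr2, Smad1, Smad5, Smad6, Smad7, Id1 and Id3. They are 10 of the 54532 genes in a table of read counts. The table covers 43 RNA-seq libraries of brain endothelial cells (EC) from mice of 2 months of age, for which no treatment is stated. Cells were dissociated from the cerebral cortex (21 libraries) or the hippocampus (22 libraries) and sorted as CD31+ cells that lacked the immune cell antigens CD45 and CD11b. The mice belonged to 5 long-inbred strains, 129S1/SvImJ (9 libraries), A/J (5), C57BL/6J (6), DBA/2J (5) and NOD/ShiLtJ (6), and to 2 recently wild-derived strains, CAST/EiJ (6) and WSB/EiJ (6). The labels name the strain and mention no transgene or induced mutation. There were 16 female and 27 male libraries. Every library title also ends in the tag high or low, which neither the labels nor the methods define. Of the male libraries 14 were titled high and 13 low, and of the female libraries 15 were titled high and 1 low. The labels do not name the mouse behind a library, so libraries may share a mouse and p-values measure the spread between these libraries only.

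BMP and TGF-beta ligands bind pairs of type I and type II receptor kinases at the cell surface. The type I receptor then phosphorylates SMAD proteins, which enter the nucleus and switch target genes on or off. In EC, the circulating ligands BMP9 and BMP10 act through the type I receptor Acvrl1 (also called ALK1), the type II receptor Bmpr2 and the co-receptor endoglin, encoded by Eng. This branch signals through Smad1 and Smad5, and Id1 and Id3 are its best known immediate target genes. Tgfbr2 is the type II receptor for TGF-beta itself. Smad6 and Smad7 are inhibitory SMADs that are induced by the pathway and damp it. Heterozygous loss of ACVRL1 or ENG in humans causes hereditary haemorrhagic telangiectasia, a disease of malformed vessels that can involve the brain.

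The libraries held between 1626534 and 49372356 counts on genes, with a median of 5790701. Female libraries were deeper (median 21242058) than male libraries (median 5257353), and carried a smaller share of counts on the rRNA-like genes Gm23935, Gm42418 and Gm26917, 1.59 to 12.1% against 13 to 29.3% in male libraries. These shares did not overlap, so sex and the making of the libraries cannot be told apart. The 20 endothelial markers, among them Pecam1, Cdh5 and Cldn5, had a mean level of 8.70 to 10.11 in every library, on the scale of log2 of CPM (counts scaled to the size of each library) plus 1. The same measure was 0.07 to 2.60 for 10 microglial markers, 6.06 to 8.35 for 10 pericyte markers, 4.68 to 7.15 for 10 astrocyte markers and 2.82 to 6.71 for 6 neuronal markers. No gene of the endothelial, pericyte, astrocyte or neuronal lists was at the floor of 3 counts over all libraries. In such bulk samples, fewer cells of a type and less RNA per cell cannot be told apart.

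The 10 genes lie on 8 chromosomes of the mm10 assembly, and all are protein-coding. The receptor genes are Acvrl1 (chr15:101128522-101145336, plus strand), Eng (chr2:32646595-32682669, plus), Bmpr2 (chr1:59763400-59879014, plus) and Tgfbr2 (chr9:116084293-116175360, minus). The signalling SMAD genes are Smad1 (chr8:79338395-79399518, minus) and Smad5 (chr13:56703010-56742377, plus). The inhibitory SMAD genes are Smad6 (chr9:63953076-64022059, minus) and Smad7 (chr18:75367529-75395935, plus). The target genes are Id1 (chr2:152736251-152737410, plus) and Id3 (chr4:136143497-136145755, plus).

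Overlapping genes drew few counts. The opposite-strand neighbour Fpgs had 3380 counts in all against 397305 for Eng, and Gm38125, on the same strand as Bmpr2, had 1306 against 486277. Searched against all annotated transcripts, 9 of the 10 genes had no stretch of at least 100 bases at 95% identity or more in another gene. Tgfbr2 shared such a stretch, at most 167 bases long, with 18 other genes, so a small part of its reads could be assigned elsewhere.

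RefSeq promoter sequence (GRCm38.p6) was matched for 7 of the 10 genes. The sequences of the co-receptor gene Eng and of the TGF-beta receptor gene Tgfbr2 are shown because the levels of both genes lay higher in libraries titled high than low in nearly all matched pairs below, and because neither window overlaps an annotated exon. The Eng window is chr2:32646345-32646594 on the plus strand and the Tgfbr2 window is chr9:116175364-116175613 on the minus strand. Each is the 250 bases before the annotated start, written 5′ to 3′, and capitals mark GTCTG or its reverse complement CAGAC, the short motif that Smad3 and Smad4 bind.
Eng: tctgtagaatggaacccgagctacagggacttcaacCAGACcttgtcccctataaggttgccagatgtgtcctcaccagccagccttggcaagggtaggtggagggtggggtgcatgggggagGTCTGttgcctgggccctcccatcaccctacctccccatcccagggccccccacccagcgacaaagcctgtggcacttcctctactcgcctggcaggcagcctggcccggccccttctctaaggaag
Tgfbr2: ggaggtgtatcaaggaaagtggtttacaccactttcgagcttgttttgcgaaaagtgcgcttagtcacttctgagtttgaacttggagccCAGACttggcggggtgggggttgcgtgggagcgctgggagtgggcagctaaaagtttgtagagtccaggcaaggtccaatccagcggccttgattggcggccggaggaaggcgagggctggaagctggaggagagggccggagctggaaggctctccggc
The motif GTCTG lay 214 and 127 bases before the start of Eng and 160 bases before the start of Tgfbr2. It was found in 3 of the 7 matched windows, those of Eng, Tgfbr2 and Id3, against 42.2% of all 32851 promoter windows of this length. The GC-rich motif GGCGCC, bound by Smad1 and Smad5, was found in 1 of the 7, that of Bmpr2, against 9.59% of all windows.

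All 10 genes were detected, and the mean levels of the receptors stood above those of the SMADs. Per kb of exon, the level of Eng was highest, at 209.6 ± 58.0 CPM per kb (mean ± SD, n = 43 libraries). Id1 followed at 128 ± 55.3 and Acvrl1 at 109 ± 30.0 CPM per kb. Tgfbr2 (59.7 ± 15.6), Id3 (56.1 ± 25.8) and Bmpr2 (54.8 ± 10.8) formed a middle group whose means differed by less than their spread. Smad7 was at 35.6 ± 14.2 CPM per kb. The signalling SMADs were the lowest together with Smad6, with Smad5 at 14.6 ± 4.94, Smad6 at 9.90 ± 5.81 and Smad1 at 9.29 ± 3.75 CPM per kb. On this scale the mean of the inhibitory gene Smad7 was above those of Smad1 and Smad5.

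**Figure D1:**
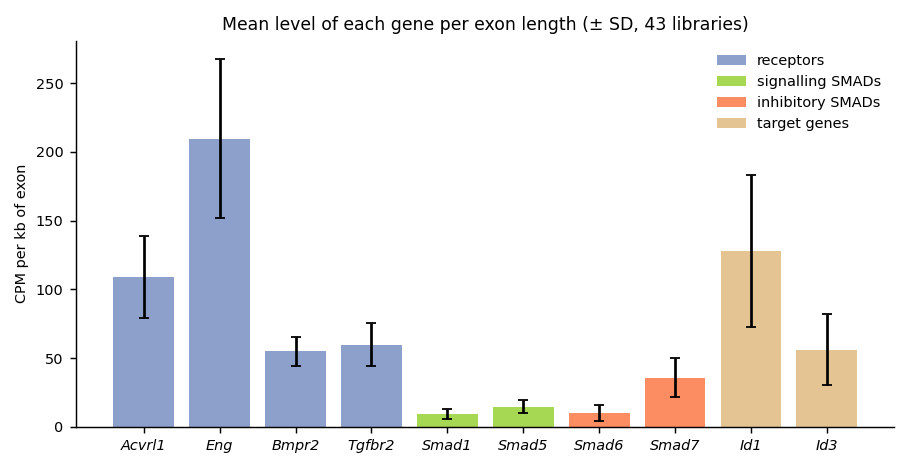
Mean level of each of the 10 genes in CPM per kb of exon over the 43 libraries (bars), with the SD over libraries as error bars and colours for the role of each gene. Eng stands at 209.6 CPM per kb, and Smad1, Smad5 and Smad6 stand below 15.

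The genes also differed in how much they varied. In CPM without length correction, Bmpr2 ranged from 575 to 1273 over the 43 libraries, with a median of 978 and a coefficient of variation of 19.7%. Tgfbr2 (124 to 771 CPM, 26.2%), Acvrl1 (233 to 729 CPM, 27.4%) and Eng (312 to 1242 CPM, 27.6%) varied more. The target genes varied widely, Id1 from 25.7 to 293 CPM (43.2%) and Id3 from 30.6 to 218 CPM (46.0%). Smad1 ranged from 3.89 to 112 CPM, Smad5 from 35.8 to 243 and Smad7 from 57.2 to 399.9. Smad6 was the most variable, from 0 to 86.0 CPM (58.7%), and its 2 libraries without a count were those of WSB/EiJ hippocampus titled high, 1 female and 1 male. There, 0 counts allow a level of up to 0.731 CPM in the female and 1.84 CPM in the male library, counting error only.

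The clearest difference among these genes was between the title tags. In male libraries, the BMP target genes Id1 and Id3 were higher in libraries titled high than in those titled low. Both encode inhibitors of basic helix-loop-helix transcription factors. Id3 was at 63.8 to 215 CPM, median 130.1, in the 14 libraries titled high, and at 44.2 to 106 CPM, median 64.1, in the 13 titled low. These ranges overlapped between 63.8 and 106 CPM. The fitted log2 fold change was 1.02 (SE 0.18, adjusted p = 7.52e-04, edgeR quasi-likelihood test). Id1 was at 84.3 to 293 CPM, median 179, in libraries titled high and at 25.7 to 155 CPM, median 89.8, in those titled low. Its log2 fold change was 0.92 (SE 0.19, adjusted p = 0.00416). Adjusted p-values are Benjamini-Hochberg values over all genes tested, and a gene was called below 0.05. Thus 2 of the 10 genes were called, both higher in high, against 1.06% of the 27529 genes tested in either direction and 0.294% higher in high.

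Of the 4 receptors, none passed this threshold. The fitted values of Acvrl1, Eng and Tgfbr2 were above 0. Acvrl1 was at 510.4 ± 90.7 CPM in high and 380.1 ± 69.3 CPM in low libraries, a log2 fold change of 0.44 (SE 0.12, adjusted p = 0.0638). Eng was at 992 ± 142 and 825 ± 115 CPM (log2 fold change 0.28, SE 0.10, adjusted p = 0.270). Tgfbr2 was at 526 ± 112 and 422 ± 61.6 CPM (0.33, SE 0.12, adjusted p = 0.303). Bmpr2 had the opposite sign, with 1018 ± 153 CPM in high and 1119 ± 152 CPM in low (-0.13, SE 0.10, adjusted p = 0.651). The SMAD genes lay between -0.14 for Smad5 and 0.33 for Smad7, with Smad1 at 0.30 and Smad6 at 0.07, and adjusted p-values of 0.636 or more. With strain and region as covariates, 4 of the 10 genes were called, Acvrl1 (0.42, adjusted p = 0.0131), Eng (0.28, adjusted p = 0.0484), Id1 and Id3, against 2.25% of the 24452 genes left in that fit. DESeq2 called 5, these 4 and Tgfbr2, against 2.31% of all genes tested.

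Because nearly every strain gave a high and a low library from the same region, the male libraries form 13 pairs. Id3 was higher in high in 12 of the 13 pairs, by a median of 1.03 on the log2 scale. The exception was DBA/2J cortex, where both libraries stood at 76.7 CPM. The widest pair was C57BL/6J cortex, with 175 CPM in high and 44.2 CPM in low. Id1 was higher in 11 of 13 pairs, by a median of 0.86. In C57BL/6J hippocampus it was at 187 CPM in high and 25.7 CPM in low, while in DBA/2J cortex (84.3 and 103 CPM) and WSB/EiJ cortex (89.5 and 118 CPM) it was lower in high. Acvrl1 and Eng were higher in high in 13 of 13 pairs, by medians of 0.39 and 0.26, and Tgfbr2 in 12 of 13. Bmpr2 was higher in 4 of 13 and Smad5 in 3 of 13. With the pairs as a block, in a fit chosen after the data were seen, Acvrl1 (0.44, SE 0.10, adjusted p = 0.00342), Eng (0.28, SE 0.08, adjusted p = 0.0324), Id1 and Id3 were called, against 2.30% of the 25339 genes left in that fit, and Tgfbr2 was not (adjusted p = 0.0921). Among 8679 genes with a mean of at least 10 CPM, 2.07% were higher in high in at least 12 pairs and 5.80% in at least 11.

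**Figure D2:**
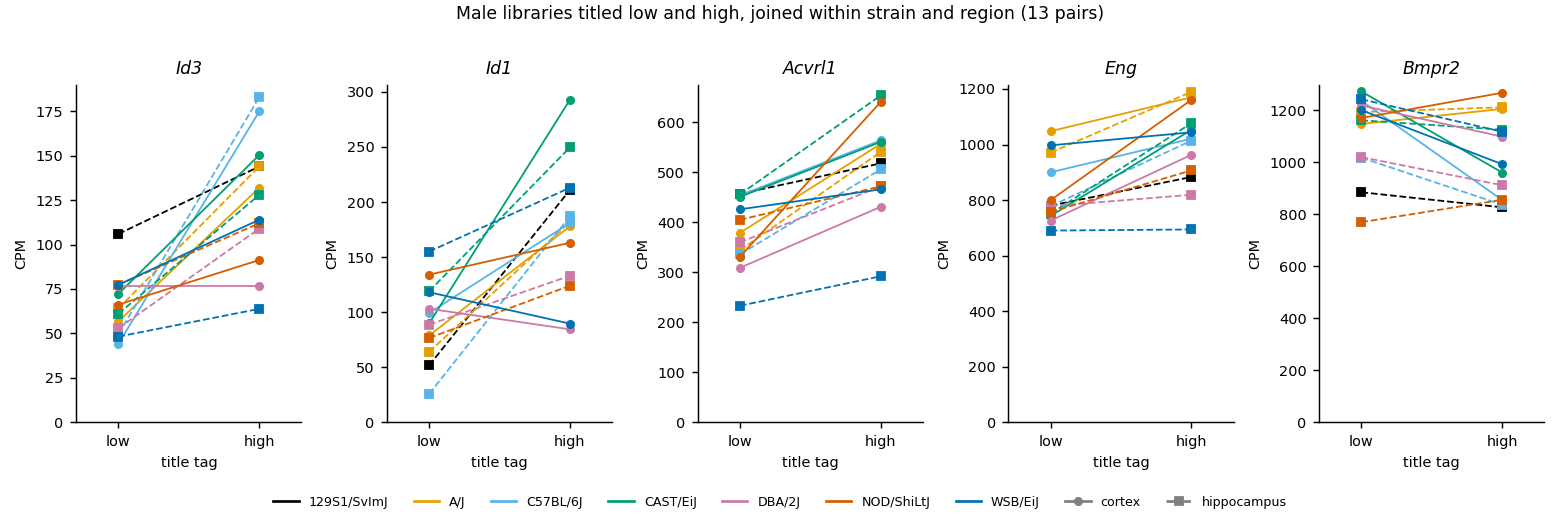
CPM of Id3, Id1, Acvrl1, Eng and Bmpr2 in male libraries titled low and high, with a line for each of the 13 pairs of the same strain and region (colours for strains, circles for cortex, squares for hippocampus). Lines for Acvrl1 and Eng all rise, those for Id3 rise in 12 pairs, and those for Bmpr2 rise in 4.

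Markers of other cell types moved with the tag as well. All 10 astrocyte, all 6 neuronal and all 6 oligodendrocyte markers had lower means in high than in low libraries, and 18 of 20 endothelial and 8 of 10 pericyte markers had higher means. The mean level of the astrocyte list was 4.68 to 6.16 in high and 5.64 to 7.15 in low, and that of the neuronal list 2.82 to 5.94 and 4.50 to 6.27, in log2(CPM + 1). The endothelial list was at 8.70 to 9.89 in high and 9.01 to 9.55 in low. No gene of these lists was at the floor in either group. With the endothelial list as a covariate, the log2 fold changes of Acvrl1 and Eng were 0.19 and 0.16, and those of Id1 and Id3 were 0.85 (adjusted p = 0.0800) and 0.70 (adjusted p = 0.103), in a fit that called 90 genes in all. With the neuronal list, Id1 was at 0.95 (adjusted p = 0.210) and Id3 at 0.71 (adjusted p = 0.297). With the pericyte and astrocyte lists together, Id1 was at 0.84 (adjusted p = 0.288) and Id3 at 0.94 (adjusted p = 0.117). None of the 10 genes was called in these fits, which called few genes in all. The share of all genes called was 0.379% with the endothelial list and 0.0584% with the neuronal list. It was 0.0898% with the pericyte and astrocyte lists. Within cortex or hippocampus alone, with 13 and 14 libraries, no member was called either, against 0.121% and 0.0208% of all genes.

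Other genes of the pathway, a list of 77 ligands, receptors, SMADs, antagonists, regulators and targets of which 74 were tested in this comparison, gave 3 calls, against the 1.06% of all genes named above. The target gene Gata2, a transcription factor of EC and blood cells, was higher in high, with 284 ± 59.2 CPM against 192 ± 52.0 CPM in low (log2 fold change 0.58, adjusted p = 0.0310). The repressors Zeb1 and Zeb2, which bind SMADs, were lower in high. Zeb1 was at 228 ± 40.6 and 346 ± 71.6 CPM (-0.59, adjusted p = 0.00844), and Zeb2 at 117 ± 43.1 and 194 ± 63.3 CPM (-0.72, adjusted p = 0.0239). The median log2 fold change over the list was -0.08, against 0.04 over all genes tested.

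Between the sexes, Bmpr2 was the only member that was called. It was at 575 to 1222 CPM, median 844, in the 16 female libraries, and at 769.7 to 1273 CPM, median 1118, in the 27 male libraries. The ranges overlapped widely, and the log2 fold change was -0.33, female minus male (SE 0.10, adjusted p = 0.0367). That is 1 of 10 genes, against 2.85% of the 29120 genes tested in either direction and 0.292% lower in female. The female mean of Bmpr2 was lower in 7 of 7 strains, by ratios of 0.579 in DBA/2J to 0.986 in WSB/EiJ. Ranges did not overlap in A/J and DBA/2J, which have 1 female library each, and in CAST/EiJ, which has 2. The share of all genes with such counts was not computed, so counts of strains are a description only. They also pool male libraries of both tags, whereas 15 of the 16 female libraries are titled high. Against male libraries titled high, the female Bmpr2 mean was above both values in C57BL/6J (884 against 855 and 837 CPM). The same held in WSB/EiJ (1122 against 993 and 1118 CPM). It was below both in A/J, CAST/EiJ and DBA/2J, and between them in NOD/ShiLtJ. For 129S1/SvImJ it was 713 against 827 CPM in hippocampus. Eng was at 312 to 1242 CPM, median 849, in female and 690.0 to 1189.6 CPM, median 900.0, in male libraries (-0.30, SE 0.13, adjusted p = 0.275). The female mean of Eng was lower in 4 of 7 strains. Id1 had a higher female mean in 7 of 7 strains, by ratios of 1.01 in 129S1/SvImJ to 2.00 in A/J. Its female and male ranges overlapped in 129S1/SvImJ, C57BL/6J, CAST/EiJ and WSB/EiJ. Against male libraries titled high, the female Id1 mean was below both values in C57BL/6J (146 against 181 and 187 CPM). It was also below both in CAST/EiJ (227 against 293 and 249.7 CPM), and for 129S1/SvImJ it was 139.6 against 211 CPM in hippocampus. In A/J, DBA/2J and NOD/ShiLtJ it was above both, and in WSB/EiJ between them. Over all libraries Id1 was at 171 ± 61.4 CPM in female and 135 ± 62.9 CPM in male, but did not pass the test (0.34, adjusted p = 0.431). The other 7 genes had adjusted p-values of 0.495 or more.

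The call for Bmpr2 depended on the libraries and covariates. With the rRNA-like share as a covariate it was -0.17 (adjusted p = 0.827), in a fit that called 59 genes in all. With strain, region and tag as covariates the adjusted p was 0.281. Without the 129S1/SvImJ libraries, which make up 6 of the 16 female libraries, it was -0.22 (adjusted p = 0.436), and the value for Eng was -0.01. Leaving out A/J, CAST/EiJ or DBA/2J also ended the call. Some marker lists moved with sex as well. Of the pericyte and of the astrocyte markers, 8 of 10 each had lower means in female libraries, and the endothelial markers were split, with 9 of 20 lower. The mean level of the pericyte list was 6.32 to 8.09 in female and 6.06 to 8.35 in male libraries, and that of the astrocyte list 4.92 to 6.57 and 4.68 to 7.15, in log2(CPM + 1). These values take no account of the tag. Within libraries titled high, the astrocyte list had a mean of 5.60 in female and 5.50 in male libraries. The pericyte list was at 6.93 and 7.27 there. With these lists as covariates Bmpr2 was at -0.28 (adjusted p = 0.101). Across the 43 libraries, Bmpr2 had a Pearson r of -0.68 with log2 of the total count and 0.56 with the rRNA-like share, and Eng of -0.57 and 0.46, as a description. Of the pathway list, 1 of 75 genes was called, against 2.85% of all genes, the target gene Hes1, a repressor better known from Notch signalling. It was at 70.7 ± 44.7 CPM in female and 37.6 ± 19.9 CPM in male libraries (0.91, adjusted p = 0.00972). Male libraries titled high were at 46.4 ± 21.8 CPM and those titled low at 28.2 ± 12.7 CPM, while female libraries were nearly all titled high. The highest female values of Hes1 were 197 CPM in WSB/EiJ cortex and 147 CPM in DBA/2J hippocampus. Skil and Ltbp4 had the next smallest p-values but were not called. Skil was at 163 ± 49.2 CPM in female and 118 ± 30.6 CPM in male libraries, and Ltbp4 at 1062 ± 292 and 1337 ± 359.6 CPM.

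The study set 7 strains side by side to compare their brain EC. In the test across all strains, none of the 10 genes was called, against 2.68% of the 29120 genes tested by edgeR. The unadjusted p was below 0.05 for 3 of them, Eng (adjusted p = 0.0562), Bmpr2 (adjusted p = 0.181) and Tgfbr2 (adjusted p = 0.339). DESeq2 called none of the 10, against 4.58% of all genes. For all 10 genes the highest and the lowest strain mean differed by modest factors, such as 1.46 for Bmpr2, 1.79 for Eng and 2.01 for Smad1. For Eng the order of strain means was A/J (1064 CPM), WSB/EiJ (958), CAST/EiJ (925), NOD/ShiLtJ (909), C57BL/6J (883), DBA/2J (755) and 129S1/SvImJ (593). Every strain overlapped with its neighbour in this order. For Bmpr2, WSB/EiJ (1133) and A/J (1132) were highest, followed by CAST/EiJ (1067), NOD/ShiLtJ (995), DBA/2J (973) and C57BL/6J (953), and 129S1/SvImJ was again lowest at 774 CPM. Tgfbr2 and Acvrl1 were highest in CAST/EiJ, at 630.0 ± 126 and 567 ± 95.1 CPM. Smad1 was highest in C57BL/6J, at 90.4 ± 20.7 CPM, and lowest in WSB/EiJ, at 44.9 ± 22.9 CPM. Smad7 was highest in WSB/EiJ, at 237 ± 97.7 CPM, with 129.9 to 399.9 CPM over its 6 libraries.

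**Figure D3:**
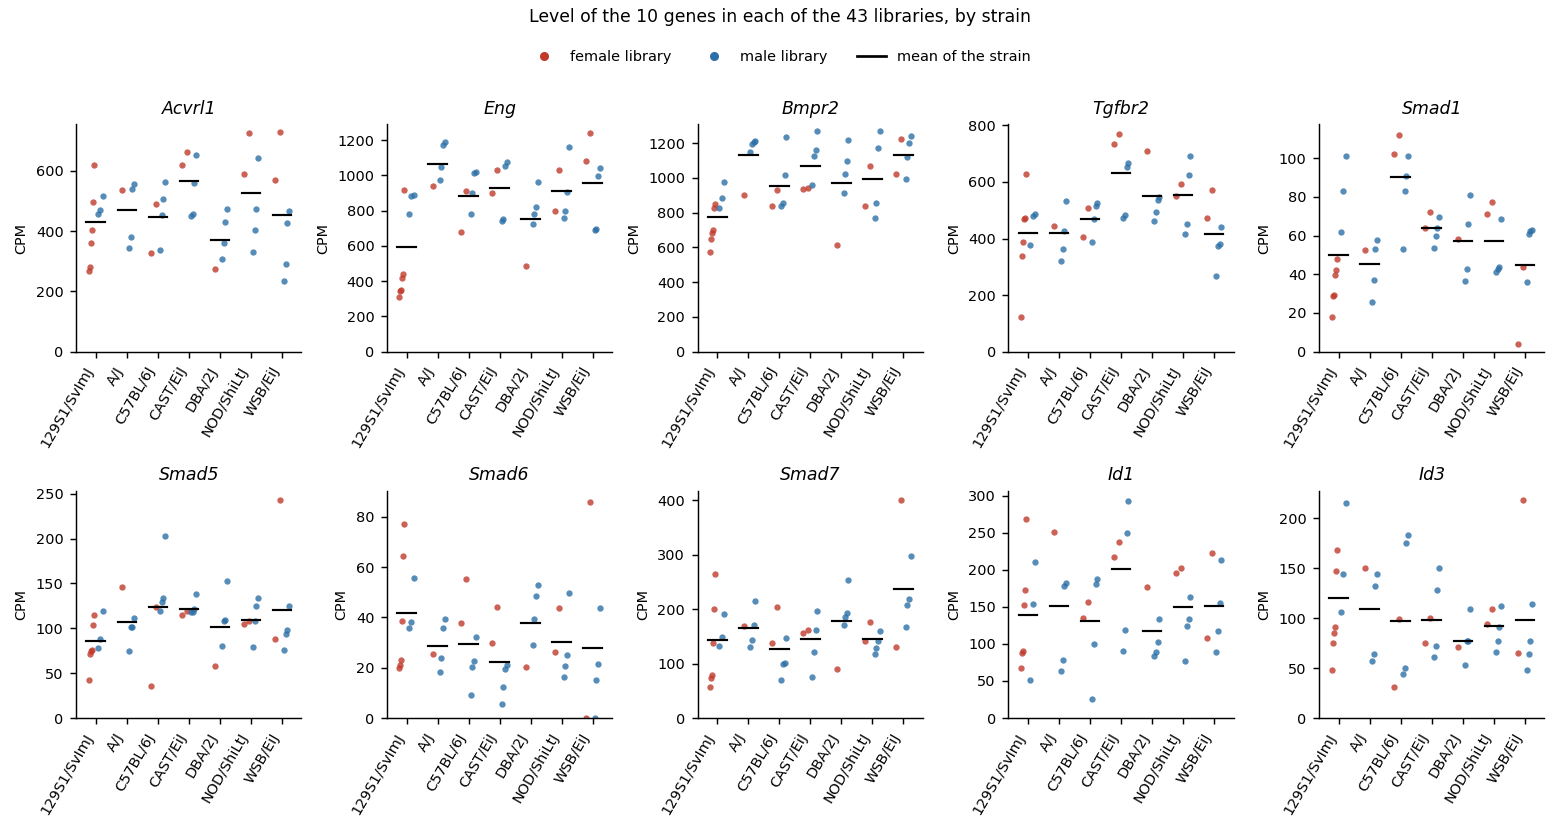
CPM of each of the 10 genes in each of the 43 libraries, by strain, with red points for female and blue points for male libraries and a black line at the strain mean. For Eng, 5 of the 6 female 129S1/SvImJ libraries sit between 312 and 440.2 CPM, below all male libraries.

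Each strain was tested against the mean of the other 6, and all 21 pairs of strains were tested. Adjusted p-values here cover the genes of 1 contrast and take no account of the number of contrasts. In 129S1/SvImJ, Eng was at 312 to 916 CPM, median 440.2, over 9 libraries, a log2 difference of -0.62 (SE 0.14, adjusted p = 0.00975). Bmpr2 was at 575 to 978 CPM, median 827, a difference of -0.43 (SE 0.11, adjusted p = 0.0316). These were 2 of 10 genes, against 1.46% of all genes in this contrast. In the other 6 contrasts of 1 strain with the rest no member was called, against 0.185 to 2.41% of all genes. Of the 21 pairs of strains, 1 gave a call, with Eng lower in 129S1/SvImJ than in A/J by -0.84 (SE 0.20, adjusted p = 0.0335, 0.258% of all genes called).

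Within 129S1/SvImJ, the low Eng values came from female libraries. Of the 6 female libraries, 5 were at 312, 346, 352, 419 and 440.2 CPM, and the hippocampus library of replicate 3 was at 916 CPM. The 3 male libraries of the strain were at 780.1, 883 and 891 CPM, inside the range of the other male libraries. Low values were not particular to this strain. The single female DBA/2J library was at 488 CPM for Eng, against 726 to 963 CPM in male libraries of DBA/2J. For Bmpr2 it was at 615 CPM, against 912 to 1219 CPM. Within male libraries, the difference between 129S1/SvImJ and the other strains was -0.08 for Eng (adjusted p = 1.0) and -0.25 for Bmpr2 (adjusted p = 0.546, 0.280% of all genes called). Within female libraries it was -0.86 for Eng (SE 0.22, adjusted p = 0.0714) and -0.31 for Bmpr2 (adjusted p = 0.324, 0.732% called). The interaction of sex with this strain was -0.86 for Eng (SE 0.27) but did not pass the correction (adjusted p = 0.339, with 0.0687% of all genes called). The female 129S1/SvImJ libraries were also among those of lowest rRNA-like share, and with this share as a covariate the difference was -0.55 for Eng (adjusted p = 0.0724) and -0.32 for Bmpr2 (adjusted p = 0.215, 0.345% called). With sex, region and title tag as covariates, Eng was at -0.57 (adjusted p = 0.0140) and Bmpr2 at -0.34 (adjusted p = 0.0887), and 0.538% of genes were called. The 10 pericyte markers all had lower means and the 6 neuronal markers all had higher means in 129S1/SvImJ than in the other strains. The 6 female 129S1/SvImJ libraries and the female DBA/2J library were also the deepest of the 43, at 27702669 to 49372356 counts. The part of these markers and of depth in the result was not tested.

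**Figure D4:**
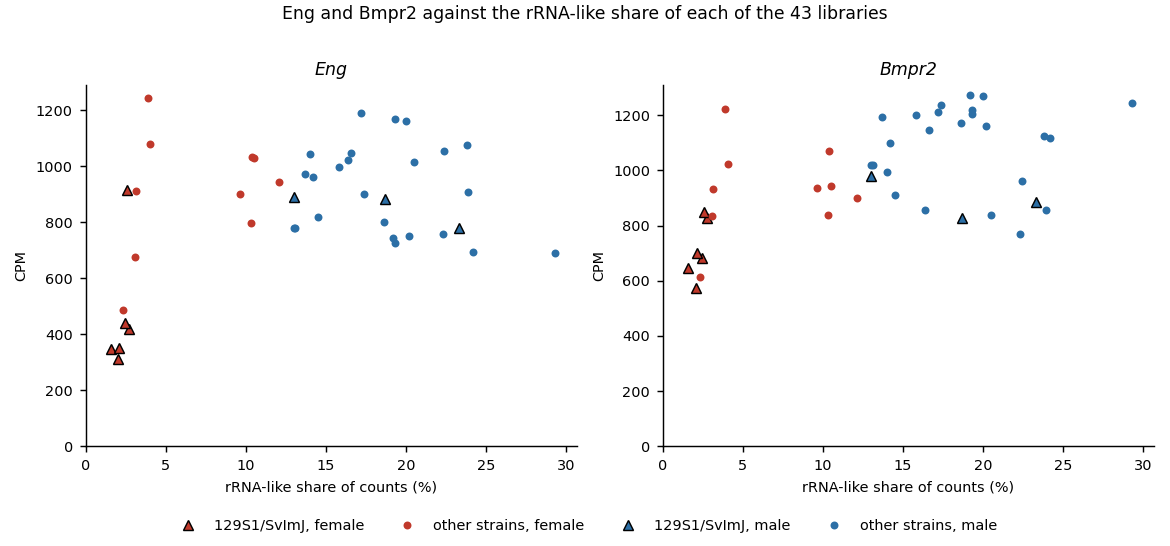
CPM of Eng (left) and Bmpr2 (right) against the rRNA-like share of counts, in percent, for each of the 43 libraries, with triangles for 129S1/SvImJ and red for female libraries. All female libraries lie at 12.1% or less and all male libraries at 13% or more, and the 5 lowest Eng values belong to female 129S1/SvImJ libraries.

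The 2 strains recently derived from the wild were set against the 5 long-inbred strains. This gave no call among the 10 genes, against 0.749% of all genes tested by edgeR. DESeq2 gave none either, against 1.36% of all genes. The nearest was Bmpr2, at 935 to 1273 CPM, median 1122, in the 12 wild-derived libraries and 575 to 1268 CPM, median 899.6, in the 31 long-inbred libraries (log2 fold change 0.22, SE 0.11, adjusted p = 0.679). It was the only member with an unadjusted p below 0.05. Smad7 was at 191 ± 85.9 and 149 ± 50.8 CPM (0.36, adjusted p = 0.720), and Id1 at 176 ± 70.7 and 138 ± 59.2 CPM (0.35, adjusted p = 0.754). Smad6 had the largest negative value, -0.46 (SE 0.36, adjusted p = 0.754).

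Between hippocampus and cortex, too, none of the 10 genes was called by edgeR or DESeq2, and none had an unadjusted p below 0.05 in either. Only 0.0755% of all genes were called in this comparison by edgeR and 0.209% by DESeq2. The 10 log2 differences lay between -0.35 for Smad6 (SE 0.32) and 0.27 for Id1 (SE 0.19). In 17 pairs of libraries of the same strain, sex and tag, with 1 library for each region, Eng was higher in hippocampus in 4, Bmpr2 in 5, Id1 in 10 and Id3 in 9. The other members were higher in hippocampus in 6 to 9 pairs. The share of all genes with such counts was not computed, so these counts are a description only. Tests of whether a difference changed with another factor called no member. For origin by region no gene of the whole table was called, for origin by sex 0.0206%, for sex by region 0.00343%, for tag by region 0 and for tag by origin 0.00727%. Of the members in these tests, Eng had the smallest unadjusted p, for origin by sex, with a difference in log2 fold change of 0.81 (SE 0.26, adjusted p = 0.820).

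**Figure D5:**
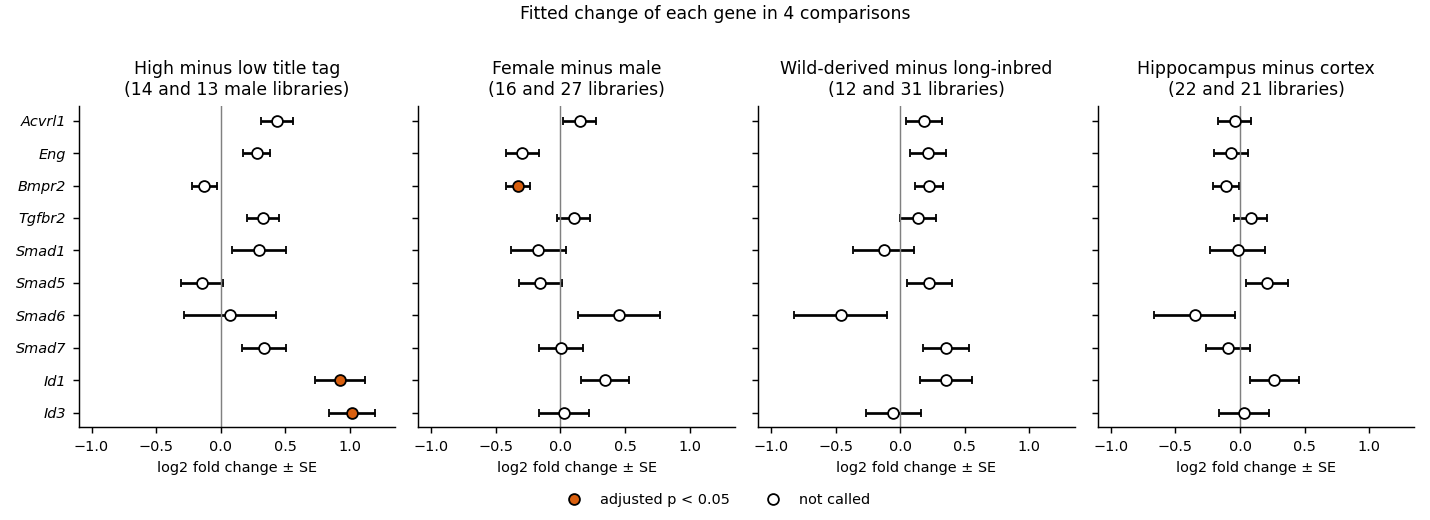
Fitted log2 fold change of each of the 10 genes (points) with its SE (bars) for high minus low in male libraries, female minus male, wild-derived minus long-inbred and hippocampus minus cortex. Filled points passed the adjusted threshold, Id1 and Id3 for the tag and Bmpr2 for sex.

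Of 75 other genes of the pathway, 4 were called across the 7 strains, against 2.68% of all genes tested. Nog encodes noggin, a secreted protein that binds BMPs and keeps them from their receptors (adjusted p = 6.71e-06). Its level was 20.7 ± 15 CPM in 129S1/SvImJ and 13.6 ± 8.18 CPM in DBA/2J, 7.55 ± 3.68 CPM in NOD/ShiLtJ and 5.28 ± 4.80 CPM in A/J. It was 1.43 ± 2.07 CPM in CAST/EiJ, 0.143 ± 0.250 CPM in WSB/EiJ and 0.0804 ± 0.0965 CPM in C57BL/6J, where at most 2 counts were found in a library. Pmepa1, an inhibitor of TGF-beta signalling that is itself a target (adjusted p = 2.48e-04), was lowest in CAST/EiJ, at 26.1 ± 10.7 CPM, and highest in NOD/ShiLtJ, at 105 ± 24.7 CPM. Tgfbr3, a co-receptor that presents TGF-beta 2 (adjusted p = 0.00590), was lowest in 129S1/SvImJ, at 135 ± 26.8 CPM, and highest in WSB/EiJ, at 280.2 ± 69.3 CPM. The ligand gene Tgfb2 (adjusted p = 0.00753) was lowest in WSB/EiJ, at 53.0 ± 33.3 CPM, and at 119 to 164 CPM in the other strains. Tgfb2 and Nog were also the 2 genes called between wild-derived and long-inbred strains, both lower in wild-derived, which is 2 of 75 against 0.749% of all genes. Tgfb2 was at 86.1 ± 52.1 and 153 ± 46.5 CPM (log2 fold change -0.83, adjusted p = 0.0434), and Nog at 0.786 ± 1.56 and 10.5 ± 11.6 CPM (adjusted p = 0.0242). Neither difference followed origin in every strain. For Tgfb2, CAST/EiJ at 119 ± 47.4 CPM was close to long-inbred NOD/ShiLtJ at 120.0 ± 34.6 CPM. For Nog, the lowest mean was that of long-inbred C57BL/6J. The co-receptor gene Rgmb had the next smallest p and was higher in wild-derived, but was not called. Its level was 50.7 ± 23.7 against 24.4 ± 13.9 CPM (log2 fold change 1.06, adjusted p = 0.0532). No gene of the list was called between regions, where Ppm1a, Skil and Msx2 had the smallest p-values.

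Of the pathway list, the gene with the highest mean CPM in each role is given here, over the 43 libraries and without correction for length. Ltbp4, which holds latent TGF-beta in the matrix, was at 1235 ± 359 CPM. The repressor Ski was at 302 ± 79.9 CPM, Gata2 at 244 ± 84.7 CPM and the co-receptor Tgfbr3 at 194 ± 63.5 CPM. The leading ligand, Tgfb2, was at 134 ± 56.4 CPM and the common SMAD gene Smad4 at 102 ± 36.4 CPM. Outside the 10 genes, the leading type I receptor gene was Acvr1, at 53.6 ± 24.6 CPM, and the leading type II receptor gene was Acvr2a, at 23.3 ± 13.8 CPM.

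The 10 genes varied together in part. Of 45 pairs, 8 passed a permutation test of Pearson's r over the 43 libraries after Benjamini-Hochberg adjustment, all with r above 0. Acvrl1 and Eng had r = 0.61 (Spearman's coefficient 0.72, permutation p = 1.0e-05, the smallest that the resamples can give, adjusted p = 4.50e-04), and r was 0.58 without the 2 libraries farthest from the median. It was 0.79 within the 16 female and 0.72 within the 27 male libraries. Eng and Bmpr2 had r = 0.69 (Spearman's coefficient 0.47, permutation p = 2.00e-05, adjusted p = 4.50e-04) over all libraries and 0.57 without 2 libraries. Within the sexes, the value for this pair was 0.90 in female and 0.07 in male libraries. Acvrl1 also passed with Tgfbr2 (r = 0.47), Id1 (r = 0.48) and Id3 (r = 0.48), each with an adjusted permutation p of 0.0100. Tgfbr2 and Id1 had r = 0.52 (adjusted permutation p = 0.0100), and Id1 and Id3 r = 0.45 (adjusted permutation p = 0.0166), with 0.29 in female and 0.56 in male libraries. Eng and Tgfbr2 had r = 0.46 (adjusted permutation p = 0.0170), which fell to 0.17 without 2 libraries. Within the sexes, r for Eng and Tgfbr2 was 0.58 in female and 0.40 in male libraries, neither past the threshold. These permutations take no account of the groups. After strain, sex, region and tag were removed as linear terms, r was 0.77 for Acvrl1 and Eng, 0.50 for Eng and Bmpr2, 0.51 for Eng and Tgfbr2, 0.38 for Acvrl1 and Id3, and 0.16 to 0.24 for the remaining 4 pairs. Within the sexes, 4 pairs passed in female and 5 in male libraries. Acvrl1, Tgfbr2, Id1 and Id3 had r of 0.69, 0.67, 0.59 and 0.54 with the mean level of the endothelial list over the same libraries, as a description.

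For each of the 10 genes, the gene with the most similar pattern was found as the highest Pearson r of log2(CPM + 1) over the 43 libraries, among 8669 genes with a mean of at least 10 CPM. These values are descriptions. Ptprb, the endothelial receptor phosphatase VE-PTP, was nearest to both Eng (r = 0.85) and Bmpr2 (r = 0.77). Tek, the angiopoietin receptor, was nearest to Tgfbr2 (r = 0.76), and Arhgap31 to Acvrl1 (r = 0.76). Of the SMADs, Smad1 was nearest to Tlnrd1 (r = 0.77), Smad5 to the calcium sensor gene Stim2 (r = 0.65), Smad6 to the small GTPase gene Rit1 (r = 0.74) and Smad7 to the adaptor gene Bcar1 (r = 0.67). Id1 was nearest to Sdcbp, which encodes syntenin (r = 0.71), and Id3 to Arhgef3 (r = 0.66).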

How the data were processed

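RNA of CD31+ CD45- CD11b- cells was depleted of rRNA and made into stranded libraries by the authors. Per the labels and the methods, the authors mapped reads to mm10 with HISAT2 2.1.0, handled alignments with SAMtools 1.9 and counted them per gene with featureCounts (Subread 1.4.4) on an mm10 transcript annotation. The deposited values are raw read counts per gene, without normalization, for 54532 genes and 43 libraries. All 43 columns were matched to a library by its title. The counting options are not given in the sources used here, so the handling of reads that match several genes, which lowers or raises counts of similar genes, is unknown.

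CPM were computed from the counts with TMM scaling. Tests covered every gene that reached 0.5 CPM in 1 or more libraries, and were run in edgeR 4.0.16 (R 4.3.3), with the quasi-likelihood F-test, trended dispersion, bias-adjusted deviances and no covariates, two-sided, with Benjamini-Hochberg adjustment over all genes tested and a threshold of 0.05. DESeq2 1.42.0 was an alternative. A covariate fit dropped any gene for which a fitted count came out above 5 times its highest observed count. Strains, origin, region and sex were compared over 43 libraries, and the title tag over the 27 male libraries, since female libraries were nearly all titled high. Groups were taken from the labels. Correlations used log2(CPM + 1) and 100000 permutations. The fits and the permutation test were tested on simulated data. Exon lengths, positions and overlaps came from GENCODE annotation of the same build, and promoters from RefSeq.

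The 10 genes, the pathway list, the marker lists, the tests and the alternatives were chosen with earlier results of these data known. All 10 genes are named in every comparison. Of the pathway list, called genes are counted, and named are the 3 of smallest p in a comparison and the gene of highest mean CPM in each role. Further genes called in a comparison are named where 5 or fewer were called. The depth of 1626534 to 49372356 counts per library sets the precision of low genes such as Smad6. All intervals and floors cover counting error only.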

Additional observations from a re-analysis of the deposited data

Results flagged for a closer look

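Each of the 10 genes was checked within each of the 7 strains for a library far from the others of its strain. Dixon's test at the 95% level was applied to log2(CPM + 1). Of these 70 sets, 7 held such a library. The nominal rate of about 1 in 20 holds for libraries of a uniform group only. Libraries of a strain differ in sex, region and tag, so the flags are a description. Bmpr2 was at 899.6 CPM in the female hippocampus library of A/J, against 1148 to 1212 CPM in the other libraries of the strain, which are all male. Tgfbr2 was at 124 CPM in the 129S1/SvImJ female cortex library titled low, replicate 3, the only female library titled low, against 338 to 627 CPM. Smad1 was at 3.89 CPM in the WSB/EiJ female cortex library titled high, against 36.2 to 62.9 CPM. Smad5 was at 42.4 CPM in the 129S1/SvImJ female cortex library titled high, replicate 3, against 71.4 to 119 CPM, and at 35.8 CPM in the C57BL/6J female cortex library titled high, against 119 to 203 CPM. It was at 138 CPM in the CAST/EiJ male cortex library titled low, against 115 to 122 CPM. Id1 was at 25.7 CPM in the C57BL/6J male hippocampus library titled low, against 99.2 to 187 CPM, and this library forms the widest of the 13 pairs of the tag comparison for Id1. Of the 7 libraries, 5 were female. Why these libraries stood apart was not tested.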

How the results depend on the processing

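The signs of the called changes held under every alternative run: Id1 between high and low stayed at 0.65 to 1.21 and Id3 at 0.69 to 1.12 on the log2 scale over 24 alternatives, and Bmpr2 between the sexes at -0.46 to -0.17 over 20. Their calls did not. Between titles high and low, 5 members were called with DESeq2 (2.31% of all genes called) and with the default quasi-likelihood settings (30.2%), and 4 with strain and region as covariates (2.25%; 2.20% with the rRNA-like share) or with the strain and region pairs as a block (2.30%). None (0) was called with the endothelial, the neuronal or the pericyte and astrocyte marker levels as covariates, with the latter beside strain and region, or in cortex or hippocampus alone. These fits called only 0.0208 to 0.379% of all genes. Between the sexes, 2 were called (Eng and Bmpr2) with DESeq2 (3.54% of all genes), the default settings (36.0%), DESeq2 size factors (2.01%) or without the 5 female libraries of higher rRNA-like share (3.86%). None (0) was called with strain, region and tag, the rRNA-like share, or the pericyte and astrocyte levels as covariates, in cortex, in hippocampus, in libraries titled high, or without 129S1/SvImJ, A/J, CAST/EiJ or DBA/2J. The fits without a call covered 0.226 to 2.96% of all genes called. Across strains, 3 were called with the default settings (46.4% of all genes). Eng alone (1) was called with all genes of at least 1 count, libraries of at least 3000000 counts, sex, region and tag as covariates, or without C57BL/6J or DBA/2J (2.70 to 3.45% of all genes). Leaving out single A/J or DBA/2J libraries gave 0 to 1 members called (Eng, without the DBA/2J female hippocampus library or the DBA/2J male cortex library titled high). Of 45 pairs of members, 4 were correlated past the threshold in female and 5 in male libraries. The cause of these changes was not tested.

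No member was called between origins or regions under any alternative run. Of 579 values of uncalled members under alternatives, 73 had the other sign and none of these was called. The default settings of edgeR called 8327 of 27529 genes for the tag, against 293 with the settings used here. DESeq2 size factors moved the median log2 fold change of all genes for sex from -0.12 to -0.24, and the genes called higher in female from 745 of 830 to 430 of 585. The alternatives on marker lists other than pericyte with astrocyte, on strains left out for tag and sex, on 129S1/SvImJ by sex and with covariates, on tag by origin and on tag pairs as a block were chosen after seeing the data. No paired analysis was possible by replicate number because the groups compared share fewer than 2 of them in the titles and the labels do not give the mouse. The region fit blocked on strain, sex and tag called 0 members (0.221% of all genes). Depth limits what can be said of Smad1 and Smad6 in the shallow WSB/EiJ libraries.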
